A study of Mus musculus with 2 samples.

Results

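The microRNA genes Mir15a, Mir16-1, Mir15b, Mir16-2, Mir497 and Mir195a make mature microRNAs that begin with nearly the same bases and are known as a family that restrains the cell cycle. They were chosen by name, and all 6 had a row among the 1973 microRNA gene rows of the deposited count tables. Their reads were taken from the strand of the gene, except for Mir497, which has no row of its own in the tables used here. Mir497 lies within Mir497b on the other strand, so the reads opposite to Mir497b were taken as those of Mir497.

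The libraries came from pooled kidneys of embryonic day 16.5 mice and were sequenced for RNA fragments shorter than 30 nucleotides. Strain B6NCrl was used, with male and female embryos in the pools, from 41 embryos for replicate 2 and from a number not given in the sources used here for replicate 1. The labels describe healthy tissue and name no mutation or treatment. There is 1 group with 2 libraries and no condition to contrast. Both libraries carry the same donor record, so the spread between them may be partly technical. In pooled whole tissue, fewer cells of a type and less microRNA per cell cannot be told apart.

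A microRNA guides the silencing complex to messenger RNAs that pair with its bases 2 to 8, the seed. MicroRNAs of this family are known to lower cyclins D and E, their partner kinases and the survival protein Bcl2, and so to hold cells before DNA replication. At this stage the kidney is still forming nephrons from dividing progenitor cells. Mir15a and Mir16-1 are best known from the locus of the noncoding RNA Dleu2, which is lost in many chronic lymphocytic leukaemias. Mir195a and Mir497 are known from heart and skeletal muscle, where they accompany the end of cell division.

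The 5′ mature sequences of the 6 genes are shown because the seed unites the family and the bases after it set its members apart. They are from RefSeq on GRCm38.p6, 5′ to 3′, with the seed in capitals. Mir322, an X-linked gene outside the family by name, is added because it carries the same seed.

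miR-15a-5p: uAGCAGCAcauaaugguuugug
miR-15b-5p: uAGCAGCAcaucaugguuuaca
miR-16-5p: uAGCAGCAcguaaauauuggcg
miR-195a-5p: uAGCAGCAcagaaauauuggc
miR-497a-5p: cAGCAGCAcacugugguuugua
miR-322-5p: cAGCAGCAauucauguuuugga

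The seed AGCAGCA occurred at bases 2 to 8 in 11 of the 1738 mature microRNA entries of the RefSeq table, 0.633% of them. miR-16-5p is entered once for Mir16-1 and once for Mir16-2. Base 9 of miR-15a-5p stood in 8 of the 11 entries, its own included, and miR-322-5p was not among these. Counted from the 5′ end without gaps, miR-15b-5p matched miR-15a-5p at 18 of 22 positions, with the substitutions A12C, G20A, U21C and G22A. miR-195a-5p matched miR-16-5p at 19 of 21 positions, differing by G10A and U11G, whereas miR-497a-5p matched miR-16-5p at 11 of 22. By sequence the closest distinct pairs were that of miR-16-5p and miR-195a-5p and that of miR-15a-5p and miR-15b-5p.

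Mir16-1 and Mir16-2 carry an identical miR-16-5p, on chromosomes 14 and 3. The longest stretch common to their precursors in GENCODE M21 was 23 nt, and all windows of 18 nt that they shared (6 in each) lay within it. No 18-nt window of Mir15a, Mir15b, Mir497 or Mir195a occurred in another of the 2202 microRNA gene entries compared. The 3′ arms of the miR-16 genes are shown because they differ between the genes. Capitals mark the 10 of 22 positions at which they differ without gaps.

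miR-16-1-3p: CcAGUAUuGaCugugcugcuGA
miR-16-2-3p: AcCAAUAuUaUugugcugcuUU

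Multiply mapped reads stand in no gene row and made up 28.0% of 11877442 reads in replicate 1 and 25.3% of 14706415 in replicate 2. A full-length, exact read of miR-16-5p fits both genes equally, so such reads would stand among the multiply mapped ones. How many there were was not measured. The levels of Mir16-1 and Mir16-2 below are those of the reads the authors assigned to each gene and need not measure miR-16-5p. Every level, share, sum and comparison that involves either gene is uncertain for this reason. The tables give 1 count per gene, so reads of the 5′ and the 3′ arm could not be told apart for any member.

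The 6 genes form 3 clusters on mm10. Mir15a (ENSMUSG00000093007, chromosome 14, 61632027 to 61632110) and Mir16-1 (ENSMUSG00000092995, chromosome 14, 61631880 to 61631972) lie on the minus strand within the gene of Dleu2, where Mir16-1 overlaps an annotated Dleu2 exon by 13 nt and Mir15a overlaps none. Mir15b (ENSMUSG00000065580, chromosome 3, 69009772 to 69009835) and Mir16-2 (ENSMUSG00000065606, chromosome 3, 69009902 to 69009996) lie on the plus strand in an intron of Smc4, which encodes a subunit of the condensin complex that compacts chromosomes for division. Mir497 (ENSMUSG00000105220, chromosome 11, 70234717 to 70234800) and Mir195a (ENSMUSG00000065411, chromosome 11, 70235042 to 70235135) lie on the plus strand, and apart from Mir497b (ENSMUSG00000070109, chromosome 11, 70234692 to 70234816, minus strand) no annotated gene overlaps them. The precursors are 54, 66 and 241 nt apart on chromosomes 14, 3 and 11.

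Replicate 1 had 5317669 reads on the strand of microRNA genes and replicate 2 had 7128703, and levels are given as counts per 1000000 of these reads (CPM). A count of 0 allows up to 3 reads, which is 0.564 CPM in replicate 1 and 0.421 CPM in replicate 2. Since the mature microRNAs are 21 or 22 nt long, CPM was not divided by length. All 6 genes reached 1 CPM in both libraries, as did 19.7% of all gene rows, and all 6 reached 100 CPM in both, as did 8.77% of all rows. The median level of the 6 genes was 864 CPM, against 64.5 CPM over the 388 genes with at least 1 CPM in both libraries. For these shares, the medians and the ranks below, every row except Mir497b was counted on its own strand.

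Mir15a had the most assigned reads of the 6 genes. It was counted 15202 times in replicate 1 and 22836 times in replicate 2, which is 2859 and 3203 CPM, with a mean of 3031 ± 244 CPM (SD, n = 2 here and below). It ranked 46 of all 1973 gene rows by mean level. Its cluster partner Mir16-1 had 6524 and 9040 reads, or 1227 and 1268 CPM, with a mean of 1247 ± 29.2 CPM. Both libraries placed Mir15a above Mir16-1, at 70.0% of the pair's reads in replicate 1 (exact Clopper-Pearson 95% interval 69.4 to 70.6) and 71.6% in replicate 2 (71.1 to 72.1). These intervals and those below cover counting error only.

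The cluster in Smc4 stood lower. Mir15b had 4902 and 8804 reads in replicates 1 and 2, or 922 and 1235 CPM, with a mean of 1078 ± 221 CPM. Mir16-2 had 1353 and 2247 reads, or 254 and 315 CPM, with a mean of 285 ± 43.0 CPM, and was the lowest of the 6 genes in both libraries. Mir15b held 78.4% (77.3 to 79.4) of the reads of this pair in replicate 1 and 79.7% (78.9 to 80.4) in replicate 2. In both clusters that pair a miR-15 with a miR-16 gene, the miR-15 gene lies first in the direction of transcription and had the higher count.

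Mir497 and Mir195a were close in level. Mir497 had 3102 and 5096 reads, or 583 and 715 CPM, with a mean of 649 ± 93.0 CPM. Mir195a had 2987 and 4171 reads, or 562 and 585 CPM, with a mean of 573 ± 16.5 CPM. Mir497 held 50.9% (49.7 to 52.2) of the reads of the pair in replicate 1 and 55.0% (54.0 to 56.0) in replicate 2, so an even split lay inside the interval of the first library and outside that of the second.

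**Figure D1:**
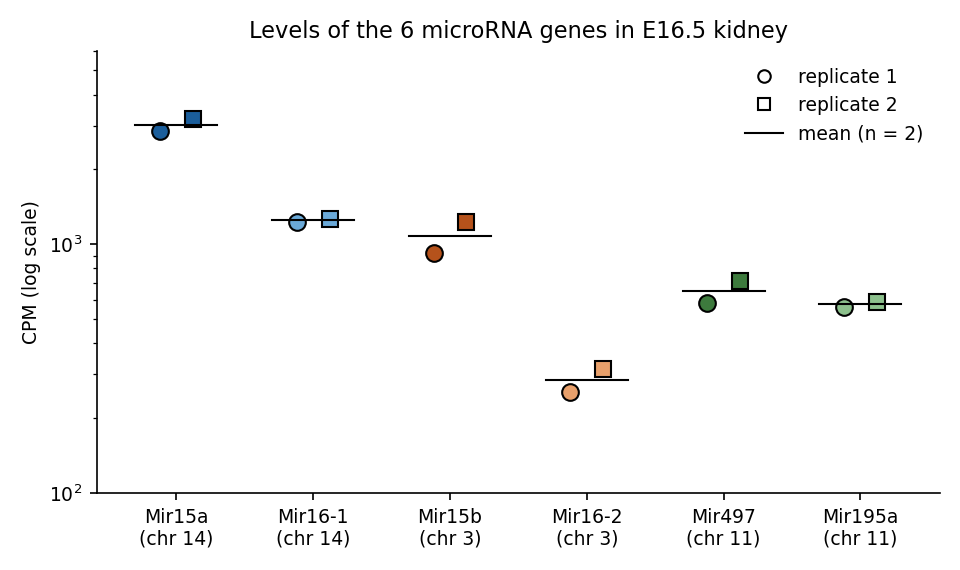
Level of each family gene in CPM (log scale), with replicate 1 as circles, replicate 2 as squares and the mean as a line. Mir15a, at 2859 and 3203 CPM, lies above all the others in both libraries, and Mir16-2, at 254 and 315 CPM, lies below them.

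**Figure D2:**
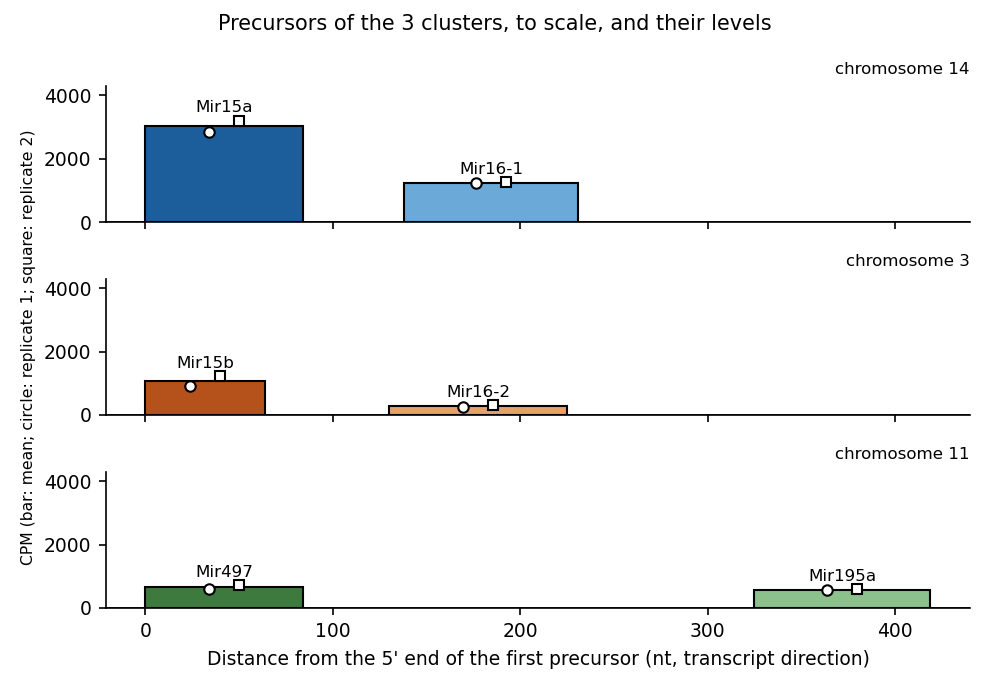
The 3 clusters drawn to scale from the 5′ end of their first precursor, with bar width as precursor length and bar height as mean CPM (circles, replicate 1; squares, replicate 2). The first precursor has the higher mean in each cluster, by a small margin for Mir497 (649 CPM) over Mir195a (573 CPM).

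No read fell on the other strand of Mir15a, Mir16-1, Mir15b, Mir16-2 or Mir195a in either library. At Mir497b all 3102 and 5096 reads were on the strand of Mir497 and 0 were on its own, which allows up to 0.564 CPM of Mir497b in replicate 1 and 0.421 CPM in replicate 2. In the column of reads on the strand of the gene, the Mir497 locus therefore appears only as a Mir497b row with 0 reads.

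To set the genes in order, differences of mean log2(CPM + 1) were compared with the spread between the libraries. Over the 182 genes that averaged 100 CPM or more, the replicates had a pooled SD of 0.22 log2, and means 1.34-fold or more apart exceeded the spread. An exact sign-flip test of 2 libraries cannot go below p = 0.5, so no p is given. Of the 15 pairs among the 6 genes, 13 exceeded the spread and 2 did not. The pairs with Mir16-1 or Mir16-2 compare assigned reads and are uncertain as stated above.

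By assigned reads the order was Mir15a, then Mir16-1 and Mir15b, then Mir497 and Mir195a, then Mir16-2. The spread is that of the same gene between the libraries. It does not cover error that differs between genes and repeats in both libraries, which was not measured. The places of Mir16-1 and Mir16-2 are also uncertain as stated above. Mir15a stood 2.43-fold above Mir16-1 (log2 difference 1.28 ± 0.08) and 2.83-fold above Mir15b (1.503 ± 0.182). Mir16-1 and Mir15b were 1.17-fold apart (0.23 ± 0.26), within the spread, and Mir497 and Mir195a were 1.13-fold apart (0.17 ± 0.17), also within it. Mir15b stood 1.65-fold above Mir497 (0.72 ± 0.09), and Mir195a stood 2.02-fold above Mir16-2 (1.01 ± 0.18). The widest difference, 10.7-fold (3.41 ± 0.10), was that of Mir15a over Mir16-2. The reads assigned to Mir16-1 stood 4.39-fold above those assigned to Mir16-2 (2.14 ± 0.18). Exact miR-16-5p reads fit both genes and would not be in this fold, so it does not compare their output of miR-16-5p.

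Summed over both genes, the Dleu2 cluster had 4086 CPM in replicate 1 and 4472 CPM in replicate 2, with a mean of 4279 ± 273 CPM. The Smc4 cluster had 1176 and 1550.2 CPM (mean 1363 ± 264), and the Mir497 cluster had 1145 and 1300.0 CPM (mean 1223 ± 109.5). The Dleu2 cluster stood 3.16-fold above the Smc4 cluster (3.47-fold in replicate 1 and 2.88-fold in replicate 2) and 3.50-fold above the Mir497 cluster (3.57-fold and 3.44-fold). The Smc4 cluster stood 1.11-fold above the Mir497 cluster (1.03-fold and 1.19-fold). No spread was measured for sums of 2 genes, so these folds are given without a test. The folds with the Dleu2 or Smc4 cluster include a miR-16 gene and are uncertain as stated above. Mir15a over Mir15b, which holds no such gene, ran the same way.

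Together the 6 genes took 0.641% (0.634 to 0.648) of the microRNA gene reads in replicate 1 and 0.732% (0.726 to 0.738) in replicate 2, with a mean of 0.686% ± 0.0647. Within the family, Mir15a held 44.2% ± 0.614 of the reads, Mir16-1 held 18.2% ± 1.29 and Mir15b held 15.6% ± 1.75. Mir497 held 9.43% ± 0.466, Mir195a 8.38% ± 0.549 and Mir16-2 4.14% ± 0.236. The Dleu2 cluster thus held 62.4% ± 1.91 of the family, the Smc4 cluster 19.8% ± 1.99 and the Mir497 cluster 17.8% ± 0.0828. The libraries differed most in Mir15b, at 14.4% (14.02 to 14.77) in replicate 1 and 16.9% (16.5 to 17.2) in replicate 2. Mir16-1 ran the other way, at 19.1% (18.7 to 19.6) in replicate 1 and 17.3% (17.0 to 17.6) in replicate 2.

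**Figure D3:**
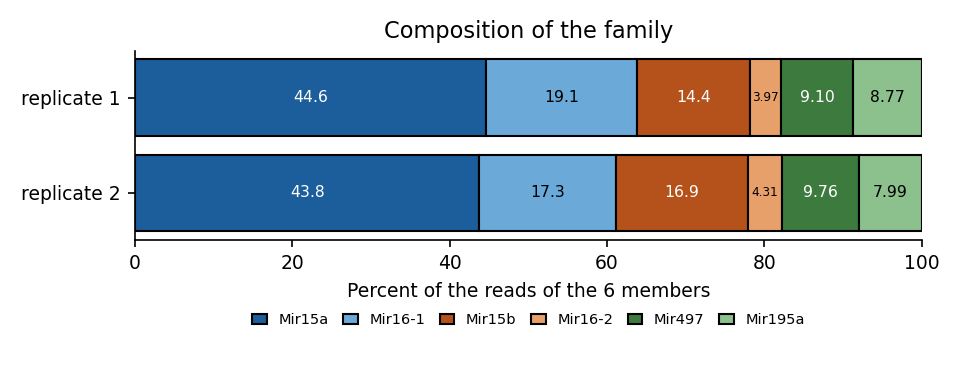
Share of each gene in the reads of the 6 family genes, in percent, for replicate 1 (upper bar) and replicate 2 (lower bar). Mir15a takes 44.6% and 43.8%, and Mir15b takes 14.4% and 16.9%.

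The same seed was carried by 5 genes outside the family as named here. Mir322, the mouse homologue of human miR-424 and a microRNA known to lower cyclins and their kinases, had 42017 CPM in replicate 1 and 39894 CPM in replicate 2, with a mean of 40956 ± 1501 CPM. It stood 5.98-fold above the assigned reads of the 6 family genes together, by 6.56-fold in replicate 1 and 5.45-fold in replicate 2. Any multiply mapped miR-16-5p reads are missing from the family sum, and how many there were was not measured. All multiply mapped reads numbered 3323410 in replicate 1 and 3718198 in replicate 2, against 223433 and 284392 reads of Mir322. The fold over all family reads may therefore be lower, and its direction is not settled. Mir503, the neighbour of Mir322, whose mature sequence matches the seed at bases 2 to 7, had 852 ± 176 CPM. The other 4 genes with the seed were at the floor. Mir195b had 1 read in replicate 1 and 0 in replicate 2, and Mir6342, Mir6353 and Mir6419 had 0 in both. The miR-195 reads of this tissue were thus counted at Mir195a on chromosome 11 and almost not at Mir195b on chromosome 2, whose mature sequence follows.

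miR-195b: uAGCAGCAcagaaauaguagaa

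Among all genes the family lay in the upper part of the detected range. By mean level Mir15a ranked 46, Mir16-1 74, Mir15b 78, Mir497 97, Mir195a 100 and Mir16-2 125 of 1973, against 7 for Mir322. Other genes read only opposite to a row, such as Mir142 (409 CPM in replicate 1 and 483 CPM in replicate 2), have no rank here. The gene outside the family nearest to each member was taken by Euclidean distance of log2(CPM + 1) over both libraries, which compares levels and not patterns across conditions. It was Mir92-1 of the Mir17 cluster for Mir15a (distance 0.04, 3076 ± 303 CPM) and Mir467e for Mir16-1 (0.05, 1249 ± 17.3 CPM). It was Mir431 for Mir15b (0.11, 1039 ± 152 CPM) and the hypoxia-induced Mir210 for Mir16-2 (0.09, 286 ± 26.0 CPM). For both Mir497 (0.14) and Mir195a (0.16) it was Mir25, of the cluster in the replication gene Mcm7, at 609 ± 64.6 CPM.

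**Figure D4:**
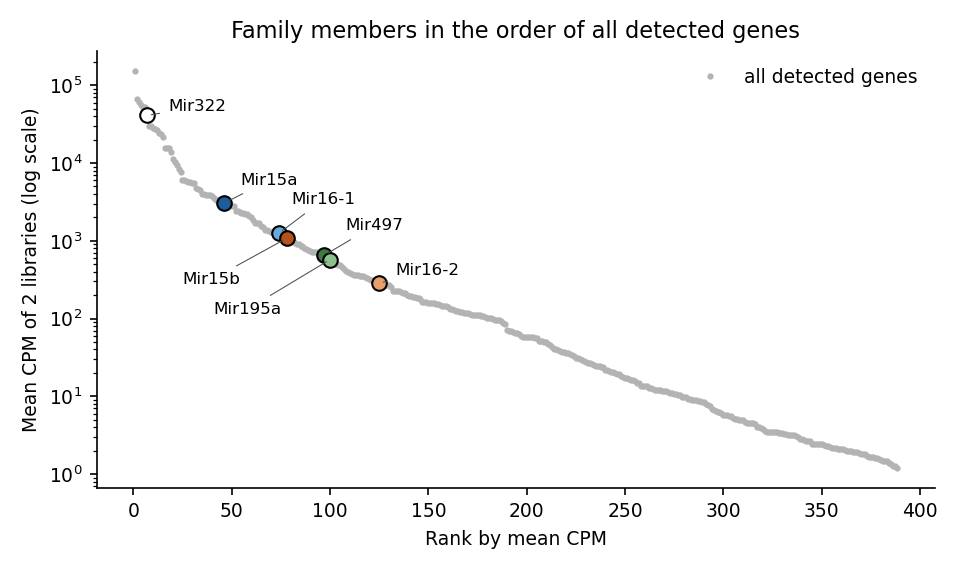
Mean CPM (log scale) of the 388 detected genes in order of rank, with the family genes in colour and Mir322, which has the same seed, as an open circle. The family runs from rank 46 (Mir15a) to rank 125 (Mir16-2), well below Mir322 at rank 7.

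Other microRNAs tied to the cell cycle were set beside the family as background lists. Of 18 listed symbols of microRNAs known to restrain cyclins or their kinases, 16 had a row and 14 were detected, with a median of 186 CPM over those with a row. Mir424 and Mirlet7e had no row. Mir424 is the human homologue of Mir322, which the list also holds. The highest were Mirlet7g (55692 ± 235 CPM), Mirlet7i (52302 ± 2886 CPM), Mir322 and Mir26b (28181 ± 604 CPM). Of 14 microRNAs known to promote proliferation, 13 had a row under the listed symbol and all 13 were detected, with a median of 609 CPM. Mir18a of the Mir17 cluster was missed because its row bears the symbol Mir18. That row had 3161 CPM in replicate 1 and 3600 CPM in replicate 2 and is in no value of this list, so the median leaves it out. The 13 genes were led by Mir17 (27319 ± 289 CPM), Mir20a (10265 ± 289 CPM), Mir93 (9574 ± 266 CPM) and Mir21a (7664 ± 1080 CPM). Mir15a stood below each of the 8 genes named as highest in the lists. The limit from multiply mapped reads applies to these lists too, since 7 of the 16 restraining genes and 2 of the 13 proliferation genes share a precursor stretch of 18 nt with another microRNA gene. Mir26a-1 and Mir26a-2, for example, had 9.07 and 42.6 CPM. Over the genes that share no such stretch the medians were 143 CPM (9 genes) and 609 CPM (11 genes).

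The libraries were then compared gene by gene, as replicate 1 over replicate 2, to see how far the family levels differed between them. Scaling used TMM factors, and the two-sided exact binomial test with Benjamini-Hochberg adjustment over 456 genes compares these libraries, not conditions, and counts read sampling only. It called 5 of the 6 genes, against 34.0% of all genes tested and 63.7% of the 182 genes averaging 100 CPM or more. In replicate 1, 3 of the 6 were lower and 2 were higher, where 16.2% of all tested genes were called lower and 17.8% higher. Of the 182 genes averaging 100 CPM or more, the range of all 6 members, 52 were called lower and 64 higher. The median log2 ratio of the 6 was -0.09, against -0.02 over all tested genes, and the median size of the ratio was 0.12, against 0.20 over all tested genes and 0.13 over the 182 more abundant ones.

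Mir15b differed most, with a log2 ratio of -0.28 and a counting error of 0.03 (adjusted exact p = 7.8e-27), which means that it was lower in replicate 1. Its partner Mir16-2 (-0.17, error 0.05, adjusted exact p = 0.00326) and Mir497 (-0.15, error 0.03, adjusted exact p = 2.3e-05) were lower too. Mir16-1 was higher in replicate 1 (0.10, error 0.02, adjusted exact p = 0.000223), but with library totals in place of TMM its ratio turned to -0.0477. Mir195a was higher too (0.08, error 0.03, adjusted exact p = 0.0454), but turned to -0.0589 with library totals and did not pass with TMM factors taken from all gene rows (adjusted exact p = 0.0735). Mir15a stood at -0.02 (error 0.02, adjusted exact p = 0.309), and passed at -0.16 with library totals. Under those totals all 6 genes had lower CPM in replicate 1, as did 309 of the 456 tested genes. In the edgeR exact test, which was given an assumed biological coefficient of variation of 0.2 as the spread between libraries, 0 of the 6 genes were called, with an adjusted p of 1 for each. That test called 0.658% of the 456 genes. The smallest unadjusted p of that test among the 6 was 0.498, for Mir15b, so 0 of the 6 had an unadjusted p under 0.05. With the coefficient fixed in advance, ratios as small as those of the 6 could not pass, so these 0 calls say nothing about the genes. Differences in the same direction were beyond read sampling under every scaling tried for 3 genes, Mir15b, Mir16-2 and Mir497. The share of all tested genes that met this rule was not counted, so it is not a result about these 3.

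**Figure D5:**
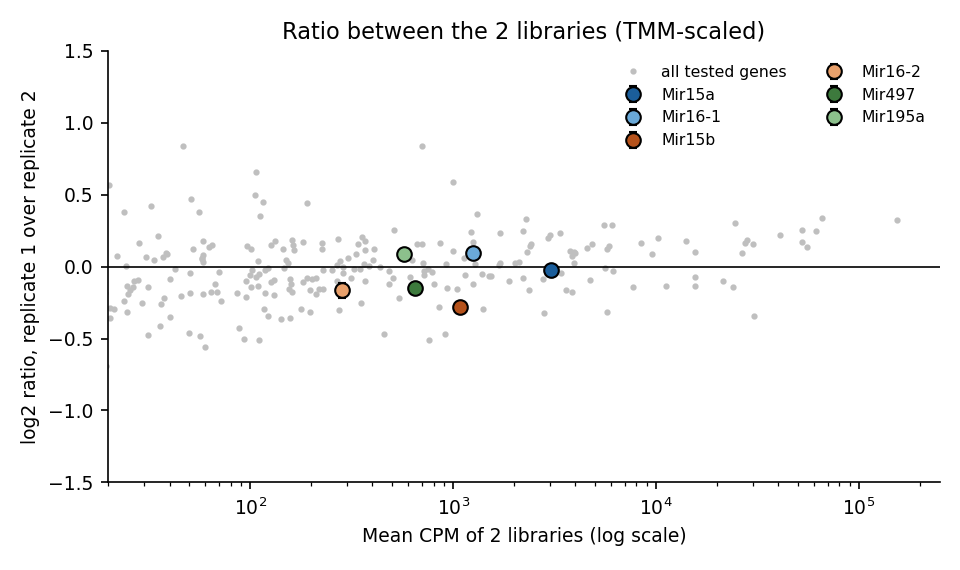
Log2 ratio of replicate 1 over replicate 2 after TMM scaling against mean CPM (log scale), with tested genes in grey and family genes in colour (bars, counting standard error). The family genes lie between -0.28 (Mir15b) and 0.10 (Mir16-1); the 211 tested genes under 20 CPM and 2 genes past a ratio of 1.5 are not drawn.

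Of the list of cell cycle restraining microRNAs 14 were tested, of which 4 were called higher and 5 lower in replicate 1 (64.3% called). Their median log2 ratio was -0.09. Of the proliferation list 13 were tested, of which 4 were called higher and 3 lower (53.8% called), and their median ratio was -0.03. Mir18, which the list missed, was called lower (-0.04, adjusted exact p = 0.00715) and is not in these counts. The background was 34.0% of all tested genes and 63.7% of those averaging 100 CPM or more, so neither share was a result about its list.

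The tissue label was checked against marker microRNAs. The Hox-locus genes Mir10a, Mir10b and Mir196b, known from posterior tissue, summed to 253806 CPM in replicate 1 and 227306 CPM in replicate 2, and Mir30a, Mir30d and Mir30e of kidney epithelium to 38006 and 45358 CPM. Markers of smooth muscle (Mir143 and Mir145a) summed to 25617 and 36005 CPM. Red cell markers (3 of 3 genes detected) summed to 313 and 434 CPM, leukocyte markers (3 of 4 listed had a row) to 566 and 664 CPM, and Mir375 of the endocrine pancreas had 867 and 537 CPM. Endothelial Mir126a had 52632 and 51554 CPM, liver Mir122 had 210.1 and 171 CPM, and the striated muscle list had 284 and 311 CPM, all of it from Mir206 and Mir208b. The fourth leukocyte marker, Mir142, lies opposite to Mir142b, where 409 and 483 CPM were counted. Mir1a-1, Mir133a-1 and Mir133a-2 had 0 reads and the neuronal Mir124a genes 1 read in all, but each shares a stretch of 18 nt with another microRNA gene, so these rows say nothing of muscle or neuronal content. The part of these cell types in the levels of the family was not tested.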

How the data were processed

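MicroRNA sequencing reads of 2 kidney libraries were used. Per the file headers (text files beside the tables), the authors made raw counts of reads per microRNA gene on assembly mm10 with annotation M4, and the deposited counts are not normalized. The aligner, the counting program and the trimming steps were not given in the sources used here. In every gene row the first count equals the sum of the other counts, which were read as sense and opposite-strand reads. Rows that name no gene (unmapped, multiply mapped, no feature, ambiguous) held 55.2% and 51.5% of the reads of replicates 1 and 2 and were left out of library sizes and tests.

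Symbols and coordinates came from GENCODE M21 by Ensembl identifier (1894 of 1973 rows matched), and sequences from RefSeq (GRCm38.p6). Sequences of all 6 members were found. CPM used all reads on the strand of the gene, and logs used log2(CPM + 1). TMM factors (0.952 and 1.05) came from edgeR 4.0.16 on genes with at least 10 reads summed, with DESeq2 1.42.0 size factors as an alternative. Binomial tests came from scipy 1.17.1. They were tried on simulated counts with read sampling error only, which cannot show how they behave when libraries differ for other reasons. The quasi-likelihood test has no residual degrees of freedom with 1 library a side. The genes and lists were chosen with earlier results of these data known. Named are all 6 members, genes with their seed, the nearest gene by level, and up to 4 of highest level per list. Alternatives covered scaling, denominator, strand, pseudocount, filter and each library alone.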

Additional observations from a re-analysis of the deposited data

How the results depend on the processing

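The 4 folds between single genes kept their direction and their side of the spread in 20 checks in all (other pseudocounts, either strand, each library alone). The 4 folds of sums had no test and kept their direction in as many checks, with the values of each library given above. Whether the folds of sums moved past their SD could not be asked, since with 2 libraries each lies within the SD of their mean. The other pseudocounts were small beside the single levels and the sums, and almost no reads of these genes were on the other strand. Those settings could therefore hardly move the folds of single genes or of sums, and their outcome says little. The summed level of 6864 CPM ranged from 6407 to 7322 CPM with either library alone. It was 3209 CPM with all reads of the table as denominator and 8115 CPM without Mir10a in the denominator. Without the miR-16 genes it was 5332 CPM, and on the other strand column 0 CPM. The count of 155 of 456 genes called between the libraries fell to 3 in the edgeR exact test with a coefficient of variation of 0.2, by the construction of that test. With library totals 194 were called, of which 21.1% were higher in replicate 1 against 52.3% with TMM, which shifts log2 ratios by 0.14. Under these totals the ratio of Mir16-1 turned to -0.0477 (adjusted exact p = 0.0895) and that of Mir195a to -0.0589 (0.167), while Mir15a passed at -0.16 (1.2e-26). With TMM factors from all gene rows, a setting chosen after seeing the data, Mir195a no longer passed (adjusted exact p = 0.0735). No paired analysis was possible because there is 1 group. Intervals cover counting error only, and the number of miR-16-5p reads that fit both its genes was not measured.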
